A study of Mus musculus with 12 samples.

Results

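The enzymes that break down pyrimidine nucleosides were followed in mouse liver and in bone-marrow-derived macrophages (BMDMs), gene by gene and library by library. The 7 members were Tymp, Upp1, Upp2, Cda, Dpyd, Dpys and Upb1, taken by their symbols from the 55335 genes of the count table, in which none of these symbols was repeated. The members were chosen by the pathway of Tymp, with the differences in counts between genotypes and tissues in these libraries already known, so the differences between groups given here are descriptions, and each p-value comes from a fit over all genes.

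RNA was sequenced from 12 libraries in 4 groups of 3. The BMDMs came from the marrow of male Tshr f/f mice or of Tshr f/f, Lyz2-Cre littermates, here called MKO, 6 weeks old, were cultured for 7 days with M-CSF at 10 ng/mL, and received thyroid-stimulating hormone (TSH) at 1 ng/mL for 24 hours in both genotypes. The livers came from male mice of the same genotypes that started a high-fat diet at 6 weeks of age, ate it for 9 weeks, fasted for 8 hours and were given insulin at 1.5 U/kg for 5 minutes before sacrifice. Tshr is the TSH receptor, and Lyz2 drives Cre in myeloid cells, so hepatocytes of MKO mice are not a target of the deletion. BMDMs without TSH, and livers without the diet and insulin, were not among these libraries. The study's methods count its groups in mice, with as many mice as libraries in each, while the labels number the libraries and name no mouse, and the p-values measure the spread between these samples.

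Total counts were 33683981 to 40954211 per BMDM library and 28962878 to 40420513 per liver library. Levels are given as CPM, counts relative to the total of the library, scaled within a tissue by the trimmed mean of M values (TMM). The 7 macrophage markers summed to between 14780 and 29330 CPM in BMDMs, in which the 6 hepatocyte markers lay between 0 and 0.0783 CPM, while the hepatocyte markers summed to between 75500 and 101000 CPM in livers. Tshr had no count in any liver and 0 to 5 counts in BMDMs, and a count over the whole gene does not check a deletion of its last part. The f/f BMDM library 3 stood apart, with a scaling factor of 0.738 against 0.993 to 1.11 in the other 5. Its 6 inflammatory genes (Tnf, Il1a, Il1b, Il6, Ptgs2 and Nos2) summed to 35480 CPM, against 1485 and 2461 CPM in the other f/f libraries and 91.2 to 319 CPM in MKO. For the livers, a supplementary table of the study lists the same counts under the opposite genotype headings, so every direction in liver follows the sample labels and would turn if that table were right.

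Pyrimidine nucleosides are cleaved to a free base and a sugar phosphate before the base is destroyed. Cda, cytidine deaminase, turns cytidine into uridine, the uridine phosphorylases Upp1 and Upp2 split uridine into uracil, and Tymp, thymidine phosphorylase, splits thymidine into thymine. Dpyd then reduces uracil and thymine, a step that limits the rate and that also clears the drug fluorouracil. Dpys opens the ring and Upb1 releases beta-alanine or beta-aminoisobutyrate. The liver is known for clearing uridine from the blood, and loss of TYMP in people causes a mitochondrial disease in which thymidine builds up.

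The promoters of the 3 phosphorylases are shown because their genes had the most uneven levels of the family, Upp1 between genotypes in BMDMs, Tymp between genotypes in livers and Upp2 among livers of 1 genotype. RefSeq windows on GRCm38.p6 matched 6 of the 7 members with 9 windows, and Dpys had none. Each stretch below runs 5′ to 3′ from 200 to 6 bases before an annotated start, the most upstream of 3 for Upp1 and the downstream one of 2 for Upp2. They lie, for Upp1 on the plus strand at chr11:9117808-9118002, for Tymp on the minus strand at chr15:89377042-89377236 and for Upp2 on the plus strand at chr2:58754984-58755178. Capitals mark TGANTCA (the AP-1 motif) in Upp1, CCAAT or its reverse complement in Tymp, and AGGTCA (a nuclear receptor half-site) and TATAAA (the TATA box) in Upp2.
Upp1: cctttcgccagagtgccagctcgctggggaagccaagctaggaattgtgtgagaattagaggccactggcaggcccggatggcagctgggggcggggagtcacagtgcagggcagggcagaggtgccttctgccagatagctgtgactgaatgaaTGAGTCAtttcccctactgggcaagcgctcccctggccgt
Tymp: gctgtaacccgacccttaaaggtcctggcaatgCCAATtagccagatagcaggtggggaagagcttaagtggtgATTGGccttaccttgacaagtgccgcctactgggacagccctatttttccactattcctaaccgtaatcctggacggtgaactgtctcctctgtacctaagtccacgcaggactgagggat
Upp2: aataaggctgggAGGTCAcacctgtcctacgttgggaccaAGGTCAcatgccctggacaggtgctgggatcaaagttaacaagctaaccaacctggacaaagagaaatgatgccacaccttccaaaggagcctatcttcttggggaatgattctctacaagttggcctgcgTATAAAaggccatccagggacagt

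The AP-1 match of Upp1 began 45 bases before the start, and TGANTCA was present in 7.81% of 32851 RefSeq promoter windows of the same length. Tymp held CCAAT 167 bases before its start and ATTGG 126 bases before it, a motif found in 37.4% of promoters. GGGCGG, left in lower case, lay 111 bases before the Upp1 start and was in 35.7% of promoters. At this start Upp2 held AGGTCA at 188 and 160 bases before it and TATAAA at 29, found in 16.3% and 13.6% of promoters. In all, 7 motifs were searched on both strands of the full windows, namely these 4, GTTAAT (HNF1 half-site), CACGTG (E-box) and GGGCGG (GC box), and no match shared a base with another. The middle Upp1 window held TGAGTCA 140 bases before its start, and the most downstream Upp1 window held no AP-1 match. At the upstream start of Upp2 the window held neither AGGTCA nor TATAAA. The shares of promoters are per window, not per gene.

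Tymp was 2.55-fold higher in MKO livers than in f/f livers by its fitted change, and no Tymp value of one genotype fell within the range of the other. The gene (ENSMUSG00000022615) lies at chr15:89371931-89377039 on the minus strand of mm10 and has 2037 bases of exon. Its level was 43.8, 51.3 and 63.9 CPM in the f/f livers, and 127, 146 and 132 CPM in the livers labelled MKO. The lowest MKO liver lay well above the highest f/f liver. Groups without overlap, with MKO higher, were seen for 9.6% of genes tested in livers. The means of Tymp were 53.0 ± 10.1 CPM in f/f and 134.9 ± 9.55 CPM in MKO (SD, n = 3 each). The log2 fold change was 1.35 ± 0.15 (SE), with an unadjusted p of 3.998e-05 and an adjusted p of 0.1505 by edgeR's quasi-likelihood test over 15062 genes. This misses the threshold of 0.05, as did every gene of that test (0.0% called, 10.5% at an unadjusted p under 0.05). DESeq2, which called 1.79% of genes, gave Tymp an adjusted p of 8.359e-11. Over all alternatives the adjusted p ranged from 8.359e-11 to 0.6357 while the log2 fold change stayed between 1.22 and 1.50. In bulk liver a change in the number of cells of a type and a change in RNA per cell cannot be told apart.

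**Figure D1:**
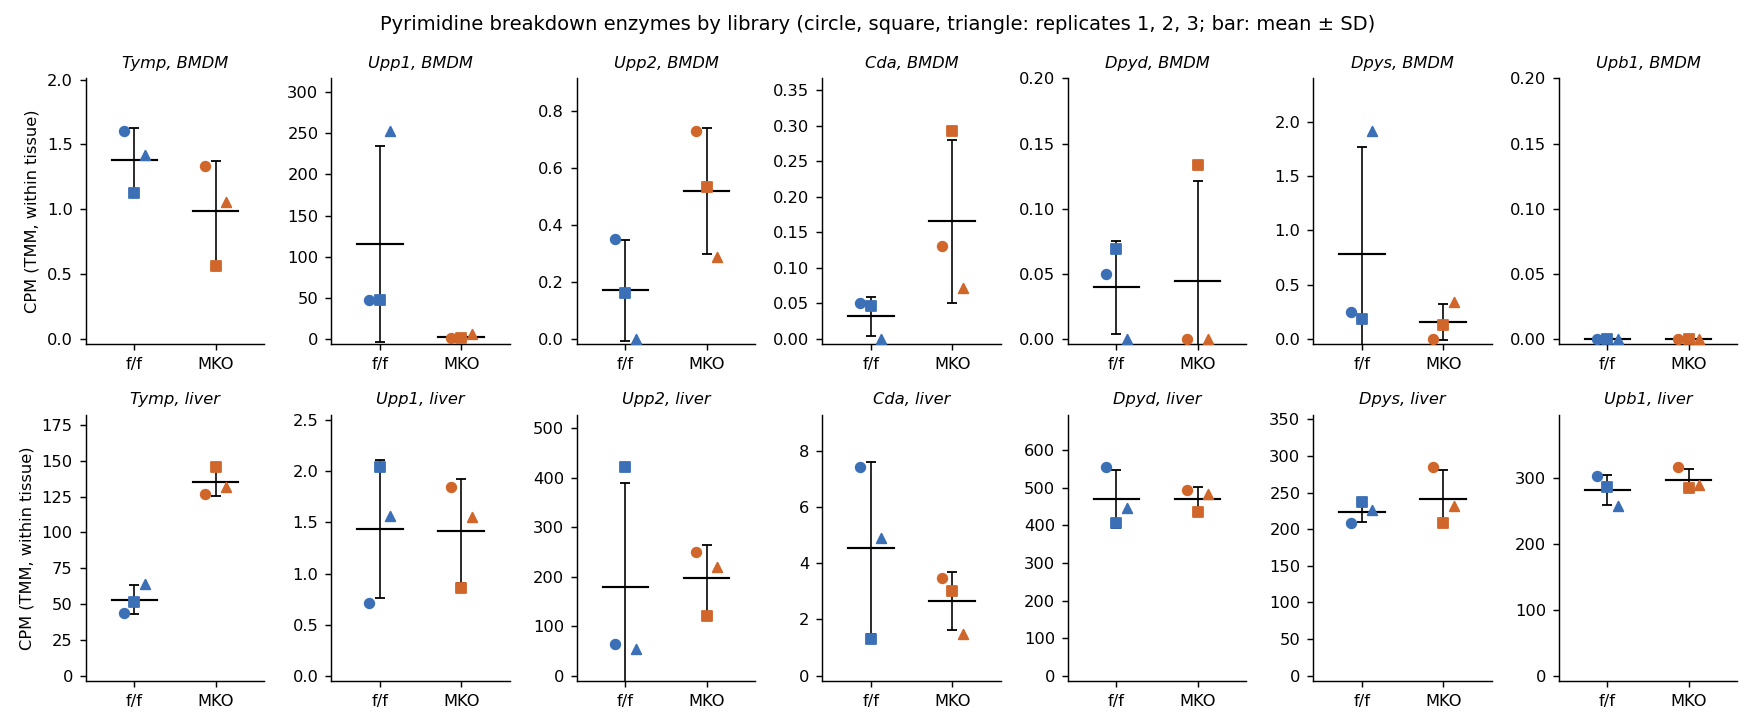
Level of each member in CPM (linear axis from about 0, scale set for each panel) in the 3 f/f (blue) and 3 MKO (orange) libraries of BMDMs, upper row, and livers, lower row; the long bar is the mean and the error bar the SD, cut off where it passes below 0. Tymp in livers and Upp1 in BMDMs have groups that do not overlap, as do the few Cda counts in BMDMs. Of all genes tested in livers, 9.6% have groups without overlap and with MKO higher. In BMDMs 14.0% have such groups with MKO lower and 14.8% with MKO higher.

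The liver IDs begin with 1 of 2 letters, and both letters held livers of both genotypes. Among the A livers the mean of Tymp was 47.6 CPM in 2 f/f livers and 132 CPM in 1 MKO liver, a ratio of 2.78. Among the B livers it was 63.9 CPM in 1 f/f liver and 136 CPM in 2 MKO livers, a ratio of 2.13. The difference was thus present within each letter, with a single liver on one side of each. With the letter as a covariate over all 6 livers, the log2 fold change of Tymp was 1.28 (unadjusted p = 9.841e-05, edgeR adjusted p = 0.31). The 5 Kupffer cell markers, which mark the resident macrophages of liver, summed to 223 to 590 CPM in f/f and 195 to 503 CPM in MKO livers, and these ranges overlapped. The neutrophil markers summed to 8.20 to 93.6 CPM in f/f and 9.72 to 17.4 CPM in MKO livers, again with overlap.

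In BMDMs Tymp was a low gene. Its level was 1.61, 1.12 and 1.42 CPM in f/f and 1.33, 0.56 and 1.06 CPM in MKO, from 21 to 64 counts per library. The groups overlapped, and the log2 fold change was −0.49 ± 0.40 (SE) with an edgeR adjusted p of 0.526. The genotype effects of both tissues were compared directly in a fit of all 12 libraries. There the effect in BMDMs minus that in livers was −1.83 ± 0.38 (SE) on the log2 scale for Tymp, with an unadjusted p of 0.0005635 and an edgeR adjusted p of 0.129, in a test that called 0.0058% of 17246 genes and gave 14.5% an unadjusted p under 0.05. The adjusted p was 4.774e-04 by DESeq2, which called 4.49%, and 0.0394 by edgeR without f/f BMDM library 2. With the genotypes of the livers exchanged, this difference turned to 0.89 ± 0.38 (SE, edgeR adjusted p = 0.337).

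The 3' end of Tymp shares sequence with other genes, which bears on what its count holds. Sco2, a mitochondrial copper chaperone for cytochrome c oxidase, is read from the same strand and shares 856 bases of exon with Tymp, 42.0% of the exon bases of Tymp. Ncaph2, a condensin subunit, is read from the opposite strand and shares 535 bases, 26.3%. The program that made the counts and its treatment of shared bases are not given in the sources used here, so reads of Tymp and Sco2 in the shared part may have been divided, dropped or assigned to either. Values of the neighbours are therefore set beside it.

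**Figure D2:**
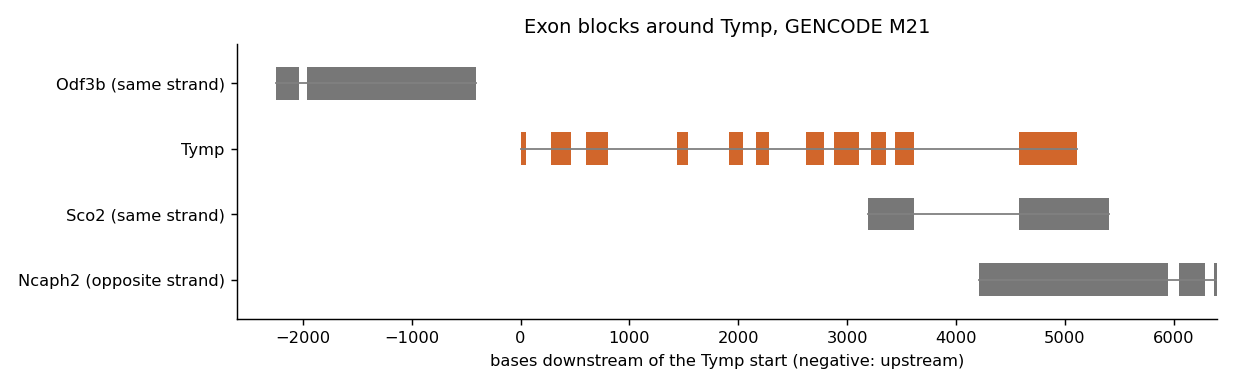
Exon blocks of Tymp (orange) and of 3 neighbouring genes (grey), to scale, against distance in bases downstream of the Tymp start. The last blocks of Tymp coincide with those of Sco2 on the same strand and with the end of Ncaph2 on the opposite strand, while Odf3b ends 409 bases upstream of the start.

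Sco2 had 8.32, 6.23 and 9.72 CPM in f/f livers and 13.2, 15.1 and 13.3 CPM in MKO livers. Its groups did not overlap either, and its log2 fold change was 0.78 ± 0.18 (SE), with an edgeR adjusted p of 0.334 and a DESeq2 adjusted p of 0.0268. Ncaph2 had between 58.1 and 66.0 CPM in all 6 livers, and its log2 fold change was −0.02 ± 0.08 (SE, edgeR adjusted p = 0.964). Odf3b, picked out after its values were seen, ends 409 bases upstream of the Tymp start and shares none of its exons. It had 4.16, 7.31 and 5.04 CPM in f/f livers and 11.1, 8.24 and 10.6 CPM in MKO livers, which did not overlap. Its log2 fold change was 0.86 ± 0.24 (SE), with an edgeR adjusted p of 0.347. In BMDMs Odf3b had 0 counts in all 6 libraries, and Sco2 had 3.59 to 4.53 CPM in f/f and 4.65 to 5.83 CPM in MKO. The log2 fold change of Sco2 in BMDMs was 0.34 ± 0.21 (SE, edgeR adjusted p = 0.418). Groups without overlap made up 17.3% of all genes tested in livers (9.6% with MKO higher and 7.74% with MKO lower) and 28.7% in BMDMs (14.8% with MKO higher).

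Upp1 was the most abundant of the 3 phosphorylases in f/f BMDMs, and its level in BMDMs was far lower in MKO. The gene (ENSMUSG00000020407) lies at chr11:9118103-9136170 on the plus strand. It had 46.9, 47.4 and 253 CPM in the f/f BMDMs, from 1866, 2070 and 6597 counts. In the MKO BMDMs it had 0.783, 0.827 and 5.95 CPM, from 30, 31 and 247 counts. Library 3 was the highest of its genotype in both groups, and the lowest f/f library still lay above the highest MKO library. Groups that do not overlap, with MKO lower, were seen for 14.0% of genes tested in BMDMs. The log2 fold change of Upp1 was −5.51 ± 1.21 (SE), 45.6-fold lower in MKO, with an unadjusted p of 0.003313 and an edgeR adjusted p of 0.218. Of 15372 genes tested, 0.0% passed the adjusted threshold and 17.9% had an unadjusted p under 0.05. DESeq2, which called 7.96% of genes, gave Upp1 an adjusted p of 1.571e-06. The edgeR fit of all 12 libraries together gave it an adjusted p of 0.0413. Over all alternatives the adjusted p ranged from 1.571e-06 to 0.587.

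The size of the Upp1 difference depended on single libraries. Without f/f library 3 the log2 fold change was −4.22 (edgeR adjusted p = 0.148), and without MKO library 3 it was −7.16. The library highest in Upp1 was also the f/f library in which the inflammatory genes summed to 35480 CPM, and in MKO library 3 they summed to 319 CPM, the highest of the MKO libraries. The other f/f libraries had inflammatory sums of 2461 and 1485 CPM and Upp1 levels of 46.9 and 47.4 CPM. The other MKO libraries had sums of 106 and 91.2 CPM and Upp1 levels of 0.783 and 0.827 CPM. The part of this activation in the level of Upp1 was not tested. The macrophage markers summed to between 14780 and 16290 CPM in f/f and between 20030 and 29330 CPM in MKO. Lyz2 made up this gap, with 8773 to 9843 CPM in f/f and 14540 to 22320 CPM in MKO, and without it the other 6 markers overlapped, at 5906 to 6444 CPM in f/f and 5495 to 7014 CPM in MKO. Adgre1, the F4/80 antigen, had 1162 to 1536 CPM in f/f and 1008 to 1137 CPM in MKO. The part of macrophage content in the level of Upp1 was not tested. The neutrophil markers summed to between 7.38 and 48.9 CPM in f/f and between 5.36 and 12.2 CPM in MKO. S100a8 was the largest part of each sum, with 5.22, 29.0 and 45.6 CPM in f/f and 3.08, 3.55 and 8.80 CPM in MKO. Mpo, Ngp and Retnlg lay higher in MKO and Camp lower, all at 2.995 CPM or less. Ngp and Retnlg had 3 counts or fewer in every f/f library. The part of neutrophils in the level of Upp1 was not tested.

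In livers Upp1 was near the bottom of the family, with 0.711, 2.04 and 1.56 CPM in f/f and 1.84, 0.857 and 1.56 CPM in MKO. These groups overlapped throughout, and the log2 fold change was −0.03 ± 0.48 (SE, edgeR adjusted p = 0.991). The effect of genotype in BMDMs minus that in livers was −5.46 ± 1.33 (SE) on the log2 scale, with an unadjusted p of 0.001894 and an adjusted p of 0.160 by edgeR and 7.112e-04 by DESeq2.

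Upp2, the liver form of uridine phosphorylase, varied more among f/f livers than between genotypes. The gene (ENSMUSG00000026839) lies at chr2:58567298-58792971 on the plus strand. Its level was 64.6, 422 and 54.8 CPM in f/f livers, and 250, 121 and 219 CPM in MKO livers. One f/f liver was the highest of all 6 and the other f/f livers were the lowest. Between genotypes the log2 fold change was 0.12 ± 0.80 (SE, edgeR adjusted p = 0.978), and it was 1.71 without f/f liver 2. In BMDMs Upp2 had 14, 7 and 0 counts in f/f and 28, 20 and 12 counts in MKO. There the log2 fold change was 1.51 ± 0.91 (SE, edgeR adjusted p = 0.406), with overlapping groups, and Upp2 passed the filter on low counts there only through its MKO libraries.

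Reads of the uridine phosphorylases were divided between Upp1 and Upp2 in opposite ways in the 2 tissues. Upp1 made up 99.3% and 99.7% of their summed counts in f/f BMDM libraries 1 and 2 and the whole of 6597 counts in library 3, against 1.09%, 0.482% and 2.77% in the f/f livers. In the MKO livers its share was 0.733%, 0.704% and 0.705%. In the MKO BMDMs it was 51.7% (95% Wilson interval 39.2% to 64.1%), 60.8% (47.1% to 73.0%) and 95.4% (92.1% to 97.3%). Every MKO share in BMDMs was thus below every f/f share, from only 51 to 259 counts per library. The Upp1 counts of MKO were lower and the Upp2 counts stayed few, and the intervals cover counting error only. These shares are of counts and are not corrected for the greater exon length of Upp2, 7761 bases against 1961 bases.

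Cda, which feeds uridine into this route, was a minor gene in both tissues. It lies at chr4:138338424-138367992 on the minus strand (ENSMUSG00000028755). In livers it had 7.41, 1.30 and 4.91 CPM in f/f and 3.46, 3.0 and 1.49 CPM in MKO. All MKO livers lay inside the range of the f/f livers. Its log2 fold change was −0.77 ± 0.62 (SE, edgeR adjusted p = 0.718), and it was −0.23 without f/f liver 1 and −1.21 without f/f liver 2. In BMDMs it had 2, 2 and 0 counts in f/f and 5, 11 and 3 counts in MKO, too few to pass the filter on low counts.

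The 3 enzymes that destroy the free base were abundant in livers of both genotypes. Dpyd (ENSMUSG00000033308, chr3:118562129-119432924, plus strand) had 554, 406 and 447 CPM in f/f and 493, 435 and 484 CPM in MKO. Its log2 fold change was 0.01 ± 0.14 (SE, edgeR adjusted p = 0.994). Every MKO liver fell inside the f/f range. Dpys (ENSMUSG00000022304, chr15:39768487-39857470, minus strand) had 209, 238 and 227 CPM in f/f and 285, 208 and 232 CPM in MKO. The log2 fold change of Dpys was 0.11 ± 0.14 (SE, edgeR adjusted p = 0.832), with overlapping groups. Upb1 (ENSMUSG00000033427, chr10:75401115-75441679, plus strand) had 302, 285.6 and 258 CPM in f/f and 316, 285 and 290 CPM in MKO. Its log2 fold change was 0.07 ± 0.11 (SE, edgeR adjusted p = 0.860), again with overlap.

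These same enzymes were nearly absent from BMDMs. Dpyd had 2, 3 and 0 counts in f/f and 0, 5 and 0 in MKO, and Dpys had 10, 8 and 50 counts in f/f and 0, 5 and 14 in MKO. The 50 counts of Dpys were again in f/f library 3. Upb1 had 0 counts in all 6 BMDM libraries. None of these and not Cda passed the filter, so 3 of the 7 members (Tymp, Upp1 and Upp2) were tested in BMDMs, Upp2 only through its MKO libraries, and all 7 in livers.

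**Figure D3:**
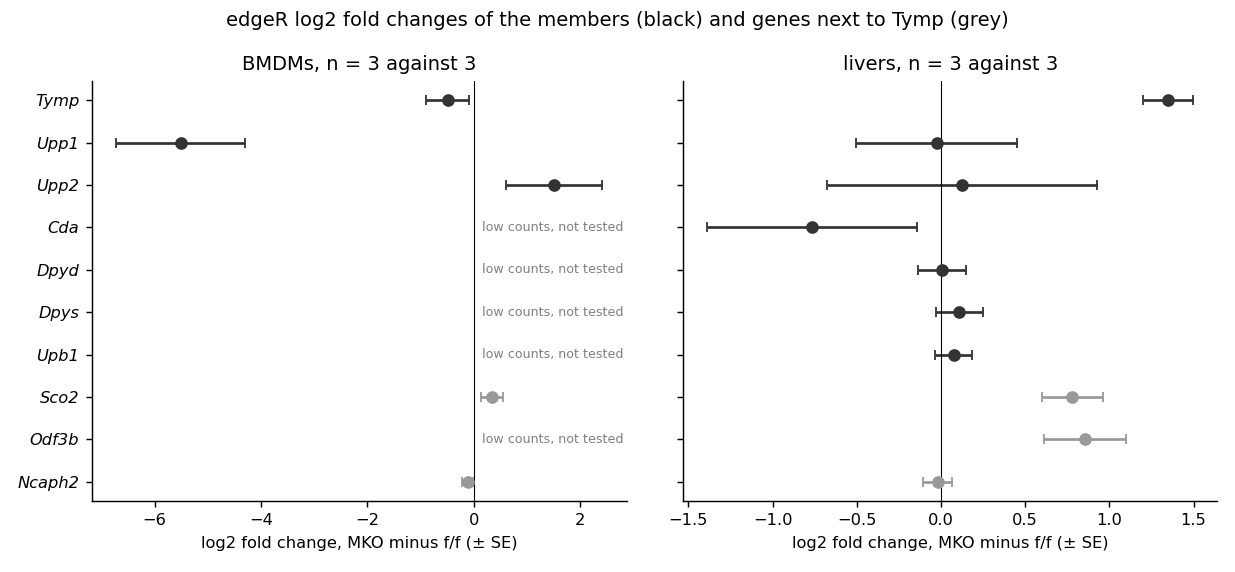
Log2 fold change (MKO minus f/f, horizontal axis, scale differs between panels) from edgeR with its SE, for the members in black and the genes next to Tymp in grey, in BMDMs (left) and livers (right), 3 libraries against 3. Upp1 in BMDMs at −5.51 and Tymp in livers at 1.35 lie furthest from 0 relative to their SE among the members; neither passed an adjusted p of 0.05 in this test.

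The tissues differed in every member. In f/f mice, 6 of the 7 genes were lower in BMDMs than in livers and Upp1 was higher, in a comparison of all genes that called 69.3% of 17246 genes (36.6% lower and 32.7% higher in BMDMs). Tymp was lower by 6.14 ± 0.31 (SE) on the log2 scale, 70.7-fold (edgeR adjusted p = 5.77e-08). Upp1 was higher by 5.44 ± 1.02 (SE), 43.3-fold (edgeR adjusted p = 7.312e-04). For Upp2 the difference was −10.78 ± 1.18 (SE, edgeR adjusted p = 1.472e-05) and for Dpys −9.15 ± 0.96 (SE, edgeR adjusted p = 1.047e-05). Single libraries moved these sizes by over 1.5 times. Without f/f BMDM library 3 Upp1 was at 4.16 and Dpys at −10.85, and without f/f liver 2 Upp2 was at −9.16, while over all libraries left out in turn the adjusted p was at most 0.00456 for Upp1, 7.661e-05 for Dpys and 1.322e-04 for Upp2. Upp2 was also at −11.69 without f/f BMDM library 1. In BMDMs alone Dpys, Cda, Dpyd and Upb1 did not pass the filter on low counts. They entered this comparison through the livers, where they are high. Upp2 passed in BMDMs only through its MKO libraries. The p-values of Upp2 and Dpys between tissues are therefore descriptions and no support for a difference. For genes with a few counts in BMDMs the ratio of summed counts of livers over BMDMs was used, with an exact 95% interval for counting error. This gave 218 (84.6 to 805) for Cda and 18800 (8056 to 57910) for Dpyd in f/f. Upb1, with no count, was at least 4494-fold lower in f/f BMDMs, against a floor of 3 counts per library. With library totals in place of TMM, the median log2 difference over all genes moved from −0.035 to 0.787 and the calls from 6310 lower and 5634 higher to 3895 lower and 8573 higher. Under those totals Tymp was lower by 5.35 and Upp1 higher by 6.02 on the log2 scale. The tissue cannot be told apart from the culture, TSH, diet and insulin that went with it.

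In MKO mice the summed counts of Upp1 in livers over BMDMs gave a ratio of 0.971 (0.792 to 1.19), against 0.0284 (0.0239 to 0.0336) in f/f. MKO BMDM library 3 held 247 of the 308 BMDM counts in MKO, and without it the ratio was 3.19 (2.35 to 4.37). Per kb of exon, MKO BMDM libraries 1 and 2 had 0.294 and 0.309 CPM of Upp1, below the 0.606 to 1.29 CPM of the MKO livers, and library 3 had 2.26 CPM, above them. The ratio for Tymp was 254 (212 to 308) in MKO and 71.5 (60.7 to 84.6) in f/f. These intervals hold no spread between libraries.

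To compare genes with each other, CPM scaled over the 12 libraries was divided by exon length. All 2037 exon bases of Tymp were used, including the 856 shared with Sco2. For Upp2 all 7761 bases were used, although its downstream start lies 187886 bases from the gene start. The ranks of Tymp and Upp2 depend on these lengths. In f/f livers the order of mean levels per kb was Dpys (81.1), Dpyd (71.3), Upb1 (56.1), Tymp (35.2), Upp2 (31.6), Cda (5.91) and Upp1 (0.994). Dpys and Dpyd overlapped between libraries, as did Tymp and Upp2, and the other neighbours in this order were separate. In MKO livers Tymp led with 90.4 ± 7.55 per kb (SD, n = 3), overlapping Dpys at 88.2 ± 14.5, and Dpyd (72.3), Upb1 (59.6), Upp2 (34.5), Cda (3.51) and Upp1 (0.986) followed without overlap between neighbours. By the labels Tymp stood 4th of 7 in f/f livers and 1st in MKO livers, ranks that would change places if the livers were exchanged, while the order of the other 6 was the same.

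In f/f BMDMs Upp1 led with 43.4 ± 44.8 per kb (SD, n = 3), followed by Tymp at 0.499 ± 0.0922. Both were separate from the gene below them, and the other 5 overlapped their neighbours at 0.154 per kb or less. In MKO BMDMs Upp1 had 0.956 ± 1.13 per kb and Tymp 0.357 ± 0.142, and these overlapped.

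**Figure D4:**
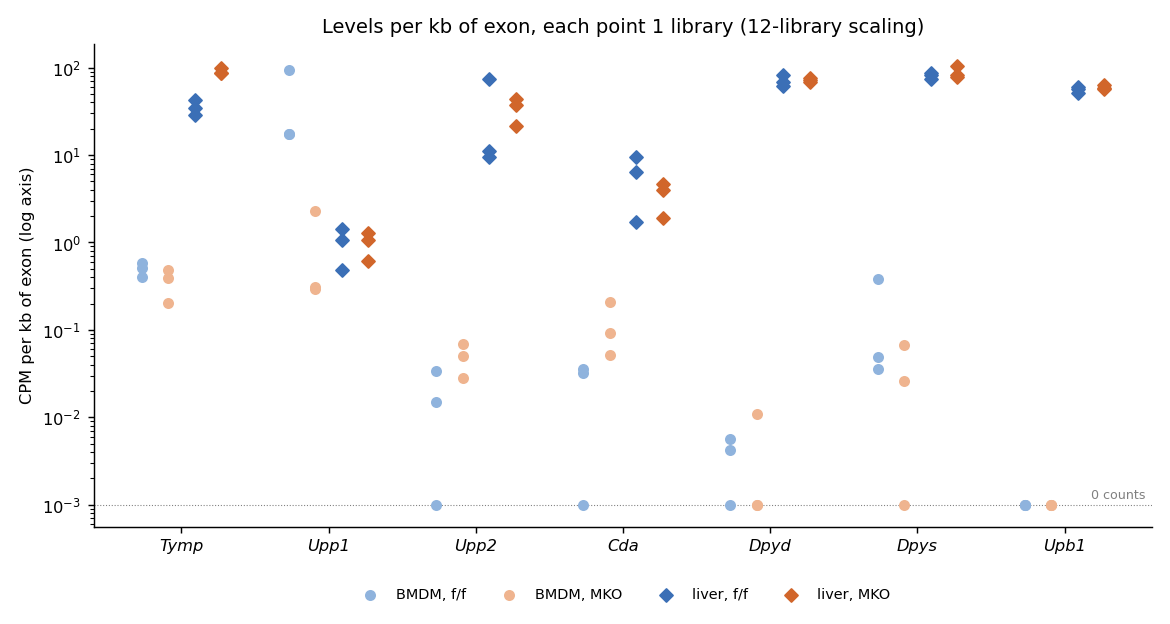
CPM per kb of exon (log axis) of each member, each point 1 library, with circles for BMDMs, diamonds for livers, blue for f/f and orange for MKO; libraries with 0 counts are drawn on the dotted line. All members but Upp1 lie higher in livers, and Tymp in MKO livers reaches the level of Dpys.

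The other genes of pyrimidine metabolism were taken from a list of 39, covering synthesis, salvage, deoxynucleotide supply, nucleotidases, transporters and the steps after beta-alanine. In BMDMs 36 were tested, and 0 passed an adjusted p of 0.05 by edgeR against 3 by DESeq2, which called 7.96% of all genes. At an unadjusted p under 0.05, 3 were lower and 6 higher in MKO, where 10.2% of all genes were lower and 7.73% higher. The median log2 fold change was 0.07, beside 0.01 over all genes tested. In livers 37 were tested, and 0 passed by edgeR or by DESeq2, which called 1.79% of all genes. At an unadjusted p under 0.05, 2 were lower and 3 higher, beside 5.18% and 5.27% of all genes. The median there was 0.12, beside −0.01 over all genes.

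**Figure D5:**
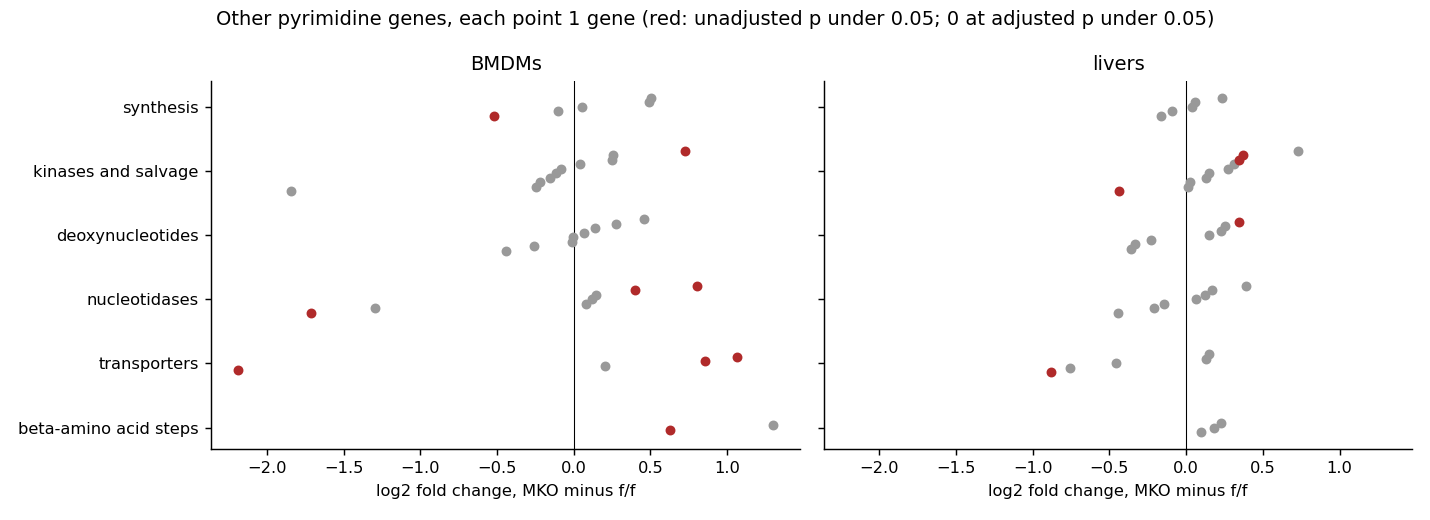
Log2 fold change (MKO minus f/f, same scale in both panels) of the other pyrimidine genes by role, each point 1 gene, in BMDMs (left, 36 genes) and livers (right, 37 genes), with genes at an unadjusted p under 0.05 in red. Medians of 0.07 and 0.12 lie near 0, and the points spread more widely in BMDMs.

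Among the other pyrimidine genes tested in BMDMs, the log2 fold change largest in size was that of a nucleoside transporter. Slc28a2, a sodium-coupled nucleoside carrier, had 264, 69.5 and 921 CPM in f/f and 94.0, 87.8 and 93.6 CPM in MKO, a difference of −2.19 ± 0.85 on the log2 scale (SE, edgeR adjusted p = 0.262). The f/f values lay on both sides of MKO. Slc29a3, a nucleoside transporter of lysosomes, had 122, 105 and 47.0 CPM in f/f and 188, 184 and 198 CPM in MKO, a difference of 1.06 ± 0.34 on the log2 scale (SE, edgeR adjusted p = 0.233). In livers the same gene had 7.34, 5.21 and 7.37 CPM in f/f and 3.16, 4.71 and 2.90 CPM in MKO, −0.88 ± 0.26 (SE, edgeR adjusted p = 0.349). The groups of Slc29a3 did not overlap in either tissue, with MKO above f/f in BMDMs and below it in livers. Of all genes tested, 28.7% in BMDMs and 17.3% in livers had groups without overlap, and Slc29a3 was named for its unadjusted p. For Slc29a3 the difference between the effects in BMDMs and livers was 1.93 ± 0.45 (SE) on the log2 scale. In edgeR it had an unadjusted p of 0.001402 and an adjusted p of 0.146. With the livers' genotypes exchanged, MKO would lie above f/f in both tissues and the difference was 0.21 ± 0.45 (SE, edgeR adjusted p = 0.901). Slc29a1, the main equilibrative carrier of the cell surface, was higher in MKO BMDMs by 0.85 ± 0.27 on the log2 scale (SE, edgeR adjusted p = 0.230).

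Enzymes that act on nucleotides and nucleosides were mixed. In BMDMs Nt5c3, a pyrimidine nucleotidase, had a log2 fold change of −1.71 (edgeR adjusted p = 0.278) and Ctps, a CTP synthase, one of −0.52 (edgeR adjusted p = 0.230). Entpd1, a surface enzyme that hydrolyses nucleotides outside the cell, had 0.81 (edgeR adjusted p = 0.252). Tk2, the mitochondrial thymidine kinase, shares the substrate thymidine with Tymp. It had 22.4, 21.2 and 14.3 CPM in f/f and 30.1, 30.2 and 35.6 CPM in MKO BMDMs, a difference of 0.73 ± 0.20 on the log2 scale (SE, edgeR adjusted p = 0.218). In livers Tk2 had 14.9, 16.1 and 16.1 CPM in f/f and 21.6, 20.5 and 18.6 CPM in MKO, 0.37 ± 0.10 (SE, edgeR adjusted p = 0.334). By the labels MKO lay above f/f without overlap in both tissues for Tk2, and with the livers exchanged it would lie below f/f in livers. Such groups, with MKO higher, made up 14.8% of genes tested in BMDMs and 9.6% in livers. The share in both tissues at once was not counted, and Tk2 was named for its unadjusted p in each tissue. In livers the other genes at an unadjusted p under 0.05 were the uridine kinases Uck1 (0.35, edgeR adjusted p = 0.465) and Uck2 (−0.44, edgeR adjusted p = 0.403), and Dctpp1 (0.35, edgeR adjusted p = 0.417), which removes unwanted dCTP.

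The genes most like Tymp were sought among 17239 genes by the Pearson correlation of log2 CPM, centred within each tissue, over the 12 libraries. The closest were Gm43359 (0.89), Actr5 (0.88), Skp1a (0.87), Zdhhc16 (0.87) and Gm16310 (0.85). The libraries share their scaling and their genotype labels, 1 of these 5 was also among the 5 closest by Spearman's rho, and both Gm genes had under 1 CPM in every library. Skp1a, a subunit of a ubiquitin ligase, had 117, 115 and 119 CPM in f/f livers and 138, 128 and 139 CPM in MKO livers, a far smaller step than that of Tymp. Of the neighbours, Odf3b had 0.69, Sco2 0.59 and Ncaph2 0.20. Among the members the same correlation was highest for Upp1 (0.34) and lowest for Cda (−0.48).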

How the data were processed

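RNA was sequenced from 12 libraries, 6 of BMDMs and 6 of livers. Per the labels, strand-specific TruSeq libraries were read on an Illumina NovaSeq. The submitters' processing notes name FastQC 0.11.2, STAR, StringTie and mm10, and the study trimmed its reads with Skewer. The authors deposited raw read counts per gene for 55335 genes, and the counting program and its strand setting are not given in the sources used here.

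Groups came from the sample labels. Counts were fitted per tissue with edgeR 4.0.16 (R 4.3.3) by the robust quasi-likelihood test after filterByExpr and TMM scaling, with 3 libraries per group. One fit of all 12 libraries gave the tissue difference and the difference between genotype effects. P-values were adjusted over all genes tested by the method of Benjamini and Hochberg, two-sided, at a threshold of 0.05. Alternatives were DESeq2 1.42.0, other scalings and filters, a replicate block, the letter of the liver ID, each library left out and, chosen after seeing the data, exchanged liver genotypes, Upp1 without a library and macrophage markers without Lyz2. The scripts were tested on simulated data.

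CPM per kb used exon lengths of GENCODE M21 on GRCm38, and promoters came from RefSeq GRCm38.p6. A value of 0 counts was bounded by 3 counts per library, which is 0.0733 to 0.0891 CPM in BMDMs and 0.0742 to 0.104 CPM in livers before scaling. Such floors and intervals cover counting error only.

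The members, the lists and the tests were chosen with earlier results of these data known. Named genes were the 7 members, up to 4 other pyrimidine genes in each direction and tissue with the largest log2 fold change at an unadjusted p under 0.05, the 5 genes most like Tymp, and genes whose exons overlap a member. Markers of dendritic, lymphoid, fibroblast, endothelial, bile duct and red blood cells were also summed. In BMDMs the fibroblast markers summed to 614 to 1762 CPM in f/f and 378 to 733 CPM in MKO, and the dendritic, lymphoid, endothelial, bile duct and red cell sums lay between 0.120 and 7.71 CPM. In livers the fibroblast or stellate sum was 25.3 to 224 CPM in f/f and 87.5 to 134 CPM in MKO, the red cell sum 121 to 282 and 153 to 222 CPM, the endothelial sum 34.4 to 124 and 80.8 to 112 CPM, and the dendritic, lymphoid and bile duct sums lay between 0.914 and 12.0 CPM.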

Additional observations from a re-analysis of the deposited data

How the results depend on the processing

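The genes at an adjusted p under 0.05 numbered 0 in each genotype comparison by edgeR. DESeq2 called 1223 in BMDMs (7.96%), 269 in livers (1.79%) and 774 for the difference between genotype effects (4.49%, edgeR 1). Of the 36 listed pyrimidine genes tested in BMDMs it called 3. The fit of all 12 libraries called 150 in BMDMs, the liver table without a filter 1, and the difference between effects had 3 with upper-quartile scaling and 2 with library totals. With the livers' genotypes exchanged, an alternative chosen after seeing the data, it had 2, and Tymp turned from −1.83 to 0.8851. Further alternatives so chosen, leaving MKO BMDM library 3 out of a ratio of Upp1 and Lyz2 out of the macrophage markers, stand beside those values. The unadjusted counts were 2756 in BMDMs and 1574 in livers. Leaving out 1 library gave 0 to 13 calls in BMDMs (13 without f/f library 2 and 2 without f/f library 3), 0 to 7 in livers (7 without f/f liver 2 and 2 without MKO liver 3) and 0 to 341 for the difference between effects. Of those, 341 came without f/f BMDM library 2, 62 without f/f library 1, 16 without f/f library 3, 4 and 2 without MKO libraries 3 and 2, and 0 without f/f liver 3 or MKO livers 2 or 3. The cause was not tested.

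Replicate numbers were not used as pairs in the main fits. Same-numbered f/f and MKO libraries deviated together with correlations of 0.087, 0.011 and 0.099 in BMDMs and −0.057, 0.205 and −0.018 in livers. Other-numbered ones had −0.185 to 0.147 in BMDMs and −0.276 to 0.26 in livers. With 3 libraries per group these values cannot show whether the samples were paired. The replicate block called 1 gene in BMDMs, Upp1 (log2 fold change −5.69, adjusted p = 0.02837), and 0 in livers. Under the block Tymp in livers kept 1.36 (adjusted p = 0.43) and Upp1 in livers was 0.0176.

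Of the values of members and neighbours under alternatives, 331 kept their direction and side of the threshold and 8 newly passed it. A further 19 turned sign, none of the 19 past the threshold, and the other 4 were classed as moved. In livers Dpyd was −0.0041 with RLE scaling and DESeq2, and Ncaph2 was 0.0075 with library totals, which made it 0.0593 in BMDMs. Without 1 library the log2 fold change in livers ranged from −0.35 to 0.31 for Upp1, −0.32 to 1.71 for Upp2, −0.0927 to 0.133 for Dpyd, −0.0298 to 0.193 for Dpys and −0.0749 to 0.0126 for Ncaph2, and the difference between effects for Upp2 from −0.28 to 2.25. Library totals moved the median log2 fold change of all genes from 0.008 to 0.175 in BMDMs and from −0.009 to 0.129 for the difference between effects. The BMDM values of Cda, Dpyd, Dpys and Upp2 rest on 0 to 50 counts per library, and the adjusted p of Tymp in livers and Upp1 in BMDMs lay on the other side of the threshold by DESeq2.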

Other observations

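Of 36 listed pyrimidine genes tested in BMDMs, 15 had a log2 fold change below 0. Among these, Nt5c3, Cmpk2 and Slc28a2 shared an order among the f/f libraries, and their f/f library 2 lay below MKO. The rest of the 15 did not show this. For Ctps, f/f library 2 was the highest, with 28.1, 35.9 and 30.9 CPM in f/f and 21.5, 25.7 and 18.9 CPM in MKO. The share of all genes with such an order was not counted. Nt5c3 had 78.4, 16.6 and 153 CPM in f/f and 27.9, 26.7 and 21.3 CPM in MKO. Cmpk2, a mitochondrial UMP and CMP kinase that is induced by interferon, was picked out after its values were seen. It had 152, 20.4 and 231 CPM in f/f and 44.6, 40.0 and 28.1 CPM in MKO, a difference of −1.84 ± 0.78 on the log2 scale (SE, edgeR adjusted p = 0.283). Slc28a2 had the same order, with 264, 69.5 and 921 CPM in f/f. Upp1 did not share it, since f/f libraries 1 and 2 had 46.9 and 47.4 CPM.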
